A study of Homo sapiens with 6 samples.

Results

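The messenger RNAs of the respiratory chain and ATP synthase, made partly from nuclear and partly from mitochondrial genes, were followed in MDA-MB-453 cells after siRNA to *DUSP6*. Members were taken by gene symbol or gene ID. Nuclear genes were those with a symbol of the NDUFA, NDUFB, NDUFC, NDUFS or NDUFV series, SDHA to SDHD, any UQCR symbol, *CYC1*, a COX4 to COX8 symbol with at most a subunit letter and an isoform digit, or an ATP5F1, ATP5M or ATP5P symbol. Mitochondrial genes were the 13 that code for protein. The rule gave 98 of the 22807 rows of the table, 85 nuclear and 13 mitochondrial. It used no measured value. The 85 nuclear rows included 2 pseudogenes, *UQCRBP1* and *ATP5F1EP2*, and left out *COX4I1*, *COX4I2*, *COX7A2L*, *NDUFAB1* and *CYCS*, whose symbols have another form.

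MDA-MB-453 is an established HER2+ breast cancer cell line, labelled wild type and grown in RPMI with serum, and the labels name no drug. The table held 6 RNA sequencing libraries of these cells, 3 transfected with scrambled siRNA (SCR) and 3 with *DUSP6* siRNA (DUSP6_KD). *DUSP6* encodes a phosphatase that removes phosphate from ERK kinases. The 3 *DUSP6* siRNAs were different from one another, as were the 3 scrambled controls, and the labels do not say which one went into which library, so differences between siRNAs may be part of the spread between libraries. The libraries are all of 1 cell line, the labels do not say whether each came from a culture of its own, and the p-values measure the spread between these libraries. In bulk libraries, fewer cells of a type and less RNA per cell cannot be told apart.

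The respiratory chain passes electrons from NADH and succinate to oxygen in the inner mitochondrial membrane. Complex I takes them from NADH and complex II from succinate, ubiquinone carries them to complex III, cytochrome c carries them on to complex IV, and the proton gradient built by complexes I, III and IV drives ATP synthase, here called complex V. Every subunit of complex II is encoded in the nucleus, whereas the other complexes combine nuclear subunits with a few made inside the mitochondrion. The mitochondrial genes are transcribed by their own polymerase from both strands of a small circular genome as long RNAs, which are cut into single mRNAs mostly at the tRNAs between them. Some neighbours have no tRNA between them and stay joined on 1 mRNA.

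2 such joined pairs are shown because their reading frames overlap, so that a read there belongs to both genes. *ATP8* and *ATP6* share 46 bases, chrM:8527-8572 on the plus strand of hg38, printed with the start codon of *ATP6* and the stop codon of *ATP8* in capitals. The overlap is 22.2% of *ATP8* and 6.75% of *ATP6*. The last 30 bases of *ND4L*, chrM:10737-10766, are printed with the 7 bases it shares with *ND4* in capitals.
ATP8 and ATP6 overlap: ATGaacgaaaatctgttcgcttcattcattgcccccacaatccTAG
ND4L end: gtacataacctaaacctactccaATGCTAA

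For the nuclear genes, promoters are shown for 6 members on which the results turn, a pair each of complexes I, II and III. RefSeq promoter sequences on GRCh38.p14 were at hand for 67 of the 85 nuclear members. Each line gives the 150 bases before the gene's start, on the gene's strand, with matches in capitals to the motif of NRF1, a factor that activates many respiratory genes (GCGCANGCG), or to the core of the ETS motif, which GABP binds (CCGGAAG), on either strand. The windows are chr11:47578924-47579073 for *NDUFS3*, chr3:120596186-120596335 for *NDUFB4*, chr5:218170-218319 for *SDHA*, chr1:17054033-17054182 on the minus strand for *SDHB*, chr16:21953211-21953360 for *UQCRC2* and chr22:29767219-29767368 for *UQCR10*, and each gene begins at the next base.
NDUFS3: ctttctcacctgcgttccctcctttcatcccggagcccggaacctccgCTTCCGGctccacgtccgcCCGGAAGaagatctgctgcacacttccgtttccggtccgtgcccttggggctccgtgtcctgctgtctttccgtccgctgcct
NDUFB4: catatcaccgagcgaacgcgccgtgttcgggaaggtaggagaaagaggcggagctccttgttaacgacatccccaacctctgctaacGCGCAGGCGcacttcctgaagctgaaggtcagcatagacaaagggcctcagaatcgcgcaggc
SDHA: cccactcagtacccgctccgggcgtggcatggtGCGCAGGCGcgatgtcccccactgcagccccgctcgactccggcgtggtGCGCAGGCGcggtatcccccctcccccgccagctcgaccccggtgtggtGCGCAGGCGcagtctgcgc
SDHB: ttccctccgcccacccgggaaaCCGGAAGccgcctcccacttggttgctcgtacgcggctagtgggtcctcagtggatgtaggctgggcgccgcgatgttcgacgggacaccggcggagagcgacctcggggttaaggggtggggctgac
UQCRC2: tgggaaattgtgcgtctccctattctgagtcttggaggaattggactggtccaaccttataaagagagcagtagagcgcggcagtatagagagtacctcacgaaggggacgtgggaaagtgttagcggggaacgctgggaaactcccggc
UQCR10: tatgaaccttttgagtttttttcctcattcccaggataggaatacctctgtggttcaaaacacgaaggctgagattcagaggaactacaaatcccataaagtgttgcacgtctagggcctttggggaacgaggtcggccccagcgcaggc
Within these windows *SDHA* held 3 matches to the NRF1 motif, *NDUFS3* held 2 ETS matches on opposite strands, *NDUFB4* and *SDHB* held 1 match each, and *UQCRC2* and *UQCR10* held none.

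Values are reads per gene scaled to library size, as the authors normalized them, and log2 fold changes are DUSP6_KD over SCR on log2(value + 1). A gene was called when its adjusted p in limma was under 0.05 among the 12862 genes whose mean over the 6 libraries reached 1. The libraries held 45546981 to 85729785 assigned reads. *DUSP6* itself stood at 209, 110.1 and 114 in the scrambled and 39.4, 24.5 and 35.2 in the knockdown libraries, a log2 fold change of -2.05 (SE 0.25, adjusted p = 3.09e-04), and all 3 knockdown libraries lay below the scrambled ones (exact permutation p = 0.1, two-sided, the smallest that 3 against 3 libraries allow). Of all genes tested, 19.7% were called higher and 24.7% lower, with a median log2 fold change of -0.01. The cell line's markers were present, with *ERBB2* at 457 to 1068 over the 6 libraries. Their sum over 7 genes was 3353 to 4391 in the scrambled libraries and 2686 to 2855 in the knockdown libraries. Summed markers of other cells were 7.71 to 15.8 against 2.05 to 2.93 for basal cells (3 genes, with *KRT5* and *KRT14* under 1 in every library), 4.47 to 5.49 against 3.45 to 5.48 for immune cells (2 of 4 genes with a row, *PTPRC* at 0 to 0.0809), 7.45 to 8.63 against 1.49 to 1.80 for muscle (3 genes, *MYH7* at 0 in 5 libraries) and 81.1 to 106 against 162 to 192 for fibroblasts and endothelium (5 genes, nearly all of it *COL1A1*, with *COL3A1* and *CDH5* at or near 0). The part of these shifts in the results was not tested.

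The third scrambled library stood apart from the other two in the mitochondrial mRNAs. The 13 genes together took 16.1% and 15.9% of the reads in SCR replicates 1 and 2, 10.2% in SCR replicate 3, and 9.63%, 10.1% and 9.88% in the knockdown libraries. SCR replicate 3 thus lay beside the knockdown libraries and far from its own group. It was the lowest scrambled library for 13 of the 13 mitochondrial genes, against 33.1% of all genes tested, and the highest for 53 of the 80 nuclear members tested (66.3%, against 38.3% of all genes). It fell inside the range of the knockdown libraries for 19 of these 80 members and 2 of the 13 mitochondrial genes (23.8% and 15.4%, against 14.8% of all genes). The counts of calls by genome, complex and gene list are therefore given with and without this library. Without it, 24.9% of the 12881 genes tested were called higher and 27.8% lower.

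**Figure D1:**
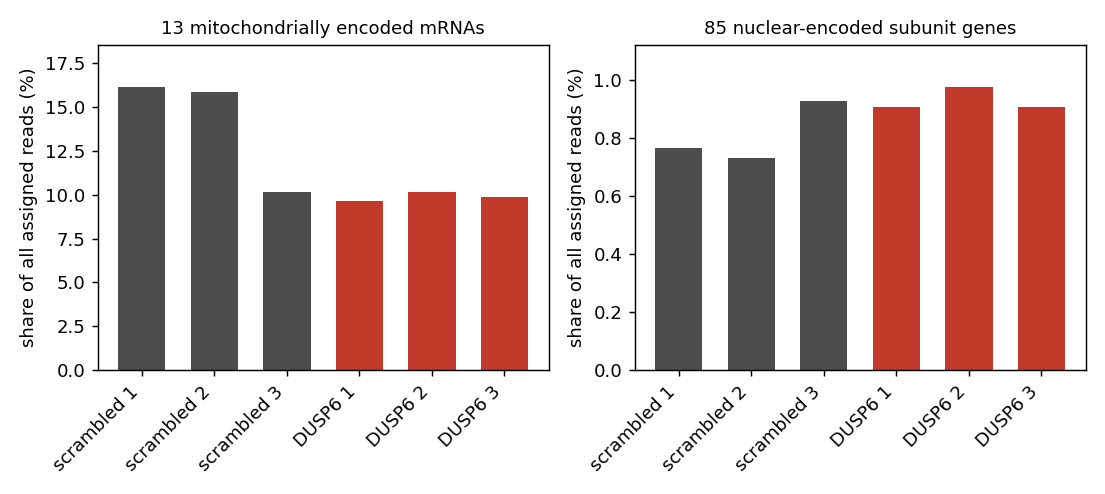
Share of all assigned reads, in percent, taken by the 13 mitochondrially encoded mRNAs (left) and by the 85 nuclear-encoded subunit genes (right), 1 bar per library, with scrambled siRNA in grey and *DUSP6* siRNA in red. Scrambled replicates 1 and 2 sit at 16.1% and 15.9% on the left, while replicate 3, at 10.2%, sits with the knockdown libraries at 9.63% to 10.1%, and the nuclear shares lie between 0.730% and 0.975%.

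The 13 mitochondrial mRNAs were lower on average after *DUSP6* siRNA, and 10 of them were called lower and 0 higher, against a background of 24.7% lower and 19.7% higher. Their median log2 fold change was -0.73, from -0.92 for *ATP8* to -0.42 for *COX2*. Summed over the 13 genes, the value was 183315, 171778 and 105111 in SCR and 88689.7, 93842 and 91259 in DUSP6_KD. The group means were 153401 ± 42216.6 and 91263 ± 2576 (SD, n = 3), so that the knockdown mean was 59.5% of the scrambled mean. SCR replicate 3 was itself at 59.2% of the mean of the other two scrambled libraries, and the knockdown mean was 86.8% of it. The highest knockdown library, DUSP6_KD replicate 2, still lay below it, at 89.3%. This gap depends on the scaling for composition in the authors' values. As plain shares of reads, SCR replicate 3 and DUSP6_KD replicate 2 were at 10.17% and 10.15%. Without SCR replicate 3, 13 of the 13 genes were called lower with a median of -0.98. Without SCR replicate 1 or 2, 6 were called, beside 2831 of 12889 and 3182 of 12887 genes called lower. Without DUSP6_KD replicate 1, 2 or 3 the number was 5, 3 and 6, beside 2456 of 12839, 2331 of 12846 and 2309 of 12843 genes. With no filter on low values 2 were called, beside 3201 of 22807 genes. Quantile normalization gives the most abundant genes of each library the same values, and it left 3 called, beside 2887 of 12862 genes. *ATP8* and *ND3* were called lower under each of the 16 other settings tried.

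The spread between the scrambled libraries was much wider than that between the knockdown libraries. The highest scrambled library was 1.29 to 2.00 times the lowest, by gene, with a median of 1.85, whereas in the knockdown group the ratio ran from 1.01 to 1.29 with a median of 1.08. For 10 of the 13 genes all 3 knockdown libraries lay below all 3 scrambled ones, a pattern seen in 31.1% of all genes tested. This count, and the order of libraries given for single genes below, hold for the values as the authors scaled them. Plain shares of reads were not compared gene by gene. Per kilobase of mRNA these were the most abundant members, at a mean scrambled value of 4690 to 24288 (median 7974) against 0.257 to 516 (median 96.0) for the nuclear members tested.

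Complex I has 7 mitochondrial subunits, all in its membrane arm, and 5 of their mRNAs were called lower. *ND4*, an antiporter-like proton pump subunit and per kilobase the most abundant of the 7, stood at 35819, 34796 and 19404 in SCR and 16830.0, 18045 and 17026 in DUSP6_KD (log2 fold change -0.74, SE 0.25, adjusted p = 0.0374). *ND1*, which lies beside the ubiquinone site, had 7301, 5899 and 3752 in the scrambled and 3189, 2697 and 3379.7 in the knockdown libraries (log2 fold change -0.82, SE 0.23, adjusted p = 0.0168). *ND2*, another antiporter-like subunit, was at 10567, 8284 and 5691 with scrambled and 4656, 4176 and 4754 with *DUSP6* siRNA (log2 fold change -0.81, SE 0.21, adjusted p = 0.0138). In all 3 genes the knockdown libraries lay below SCR replicate 3, the lowest scrambled one. *ND4L*, a small membrane subunit on the same mRNA as *ND4*, had 2839.9, 2858 and 1659 in SCR and 1454, 1591 and 1473 in DUSP6_KD (log2 fold change -0.66, SE 0.20, adjusted p = 0.0247). *ND3*, a small subunit at the joint of the arms, had 1791, 1693 and 1384 in SCR and 1102, 1086 and 1088 in DUSP6_KD (log2 fold change -0.56, SE 0.12, adjusted p = 0.00482). In these 2 genes too, SCR replicate 3 lay between the other scrambled libraries and the knockdown libraries. *ND5* and *ND6* were not called. *ND5*, the antiporter-like subunit at the tip of the arm, had 15368, 16011 and 8936 in the scrambled and 7951, 10223 and 8234 in the knockdown libraries (log2 fold change -0.57, SE 0.24, adjusted p = 0.0773). *ND6*, the only one of the 13 read from the other strand, had 4806, 5166 and 2586 with scrambled and 2267, 2919 and 2360.1 with *DUSP6* siRNA (log2 fold change -0.68, SE 0.25, adjusted p = 0.0501). In both, DUSP6_KD replicate 2 lay above SCR replicate 3, so that the groups overlapped. Reads of the opposite strand across *ND6* cannot be told apart from its own if the counting ignored strand, as it does by default.

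Complex III has a single mitochondrial subunit, *CYTB*, cytochrome b, which holds its ubiquinone sites. Its values were 8406, 8092 and 6007 in SCR and 4475, 5038 and 4497 in DUSP6_KD, without overlap (log2 fold change -0.67, SE 0.16, adjusted p = 0.00898). Among the 3 mitochondrial subunits of complex IV, *COX1*, the catalytic subunit with the heme and copper center where oxygen is reduced, had 44023, 41061 and 27269.7 in SCR and 21279.6, 21098 and 22331 in DUSP6_KD (log2 fold change -0.77, SE 0.22, adjusted p = 0.0200). *COX3*, a structural core subunit, had 14779.9, 12701 and 8785 in the scrambled and 6936, 7262 and 7214 in the knockdown libraries (log2 fold change -0.73, SE 0.20, adjusted p = 0.0157). *COX2*, which receives electrons from cytochrome c, was not called, at 17904, 17240.1 and 9159 with scrambled and 10300.0, 11165 and 10368 with *DUSP6* siRNA (log2 fold change -0.42, SE 0.25, adjusted p = 0.206). Here SCR replicate 3 lay below all 3 knockdown libraries and the other scrambled libraries far above them. For complex V, *ATP6*, the subunit a of the proton channel, had 18486, 16729.8 and 9831 in SCR and 7726, 8029 and 8000.2 in DUSP6_KD (log2 fold change -0.87, SE 0.23, adjusted p = 0.0143). *ATP8*, a small membrane subunit translated from the same mRNA, had 1223, 1248 and 646 in SCR and 524, 514 and 534 in DUSP6_KD (log2 fold change -0.92, SE 0.22, adjusted p = 0.00946). Both were lower in all 3 knockdown libraries, and since their reading frames overlap as printed above, part of their reads cannot be assigned to 1 of them. The nucleus also holds copies of mitochondrial sequence, and how reads that match both were assigned was not tested.

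**Figure D2:**
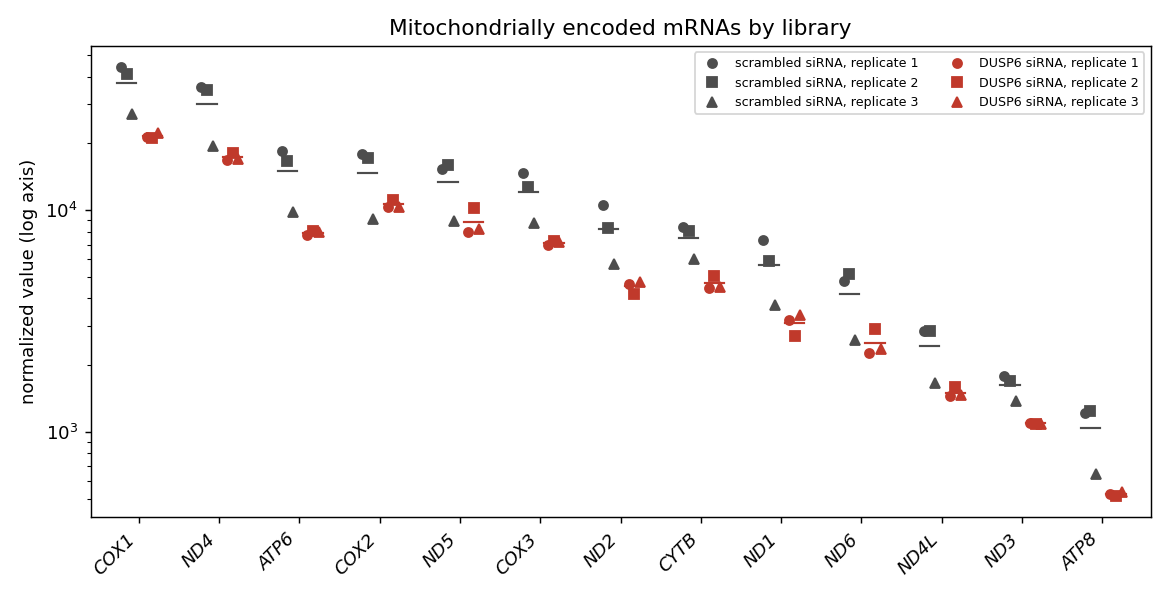
Normalized value (log axis) of each of the 13 mitochondrially encoded mRNAs in each library, with scrambled siRNA in grey, *DUSP6* siRNA in red, a symbol per replicate and a line at each group mean. Scrambled replicate 3 (grey triangles) is the lowest scrambled library for every gene shown and lies below all 3 knockdown libraries for *COX2* only.

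The make-up of the mitochondrial pool was compared as well, as the share of each gene in the sum of the 13. *COX2* took 8.71% to 10.0% with scrambled and 11.4% to 11.9% with *DUSP6* siRNA, so it was the gene that gained most in share. *ATP6* took 9.35% to 10.1% with scrambled and 8.56% to 8.77% with *DUSP6* siRNA, and *ATP8* took 0.615% to 0.727% with scrambled and 0.548% to 0.591% with *DUSP6* siRNA. The shares of *ATP6* and *ATP8* were lower, and that of *COX2* higher, in all 3 knockdown libraries than in any scrambled one, SCR replicate 3 included. *COX1* and *ND4* took 22.5% to 25.9% and 18.5% to 20.3% of the sum over the 6 libraries, with no correction for length. A share can only show that the genes changed unequally, and no test was run on the shares.

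Most nuclear members, 62 of the 80 tested, were called in neither direction. Of the 85, 80 passed the filter, and 8 of these were called higher (10.0%) and 10 lower (12.5%), against 19.7% and 24.7% of all genes tested. The median of their log2 fold changes was 0.01. Summed over the members, the value was 8692, 7905 and 9582 in the scrambled and 8344, 9018 and 8385 in the knockdown libraries, with group means of 8726 ± 839 and 8582 ± 378 (SD, n = 3). In 13 members all 3 knockdown libraries lay above the scrambled ones, and in 16 below, against 26.7% and 31.1% of all genes. Without SCR replicate 3, 27 members were called higher and 15 lower (33.8% and 18.8%, beside 24.9% and 27.8% of all genes in that fit). Leaving out SCR replicate 1 or 2 gave 3 and 5 higher, and leaving out DUSP6_KD replicate 1, 2 or 3 gave 4, 3 and 5, with 7 to 13 lower. In that order, 2161, 2407, 1794, 1535 and 1686 of all genes were called higher, and 2309 to 3182 lower, of 12839 to 12889 tested. The scaling moved the split as well. Another setting counted library sizes without the mitochondrial genes and also dropped the deposited TMM factors, edgeR's scaling for composition. The part of each change in the result was not tested. This setting moved the median of all genes to 0.14, with 24 members called higher and 6 lower, beside 4146 and 2196 of all genes. Quantile normalization gave 20 and 10, beside 2958 and 2887 of all 12862 genes. The 4 members that lost a lower call with library sizes without the mitochondrial genes and no TMM factors were *NDUFA10*, *UQCRHL*, *ATP5MPL* and *ATP5F1C*. 9 nuclear members kept their call under each of the 16 other settings, *NDUFB2*, *NDUFB4*, *NDUFS3*, *SDHA*, *SDHB*, *UQCR10*, *UQCRC2*, *COX6A1* and *ATP5PF*.

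**Figure D3:**
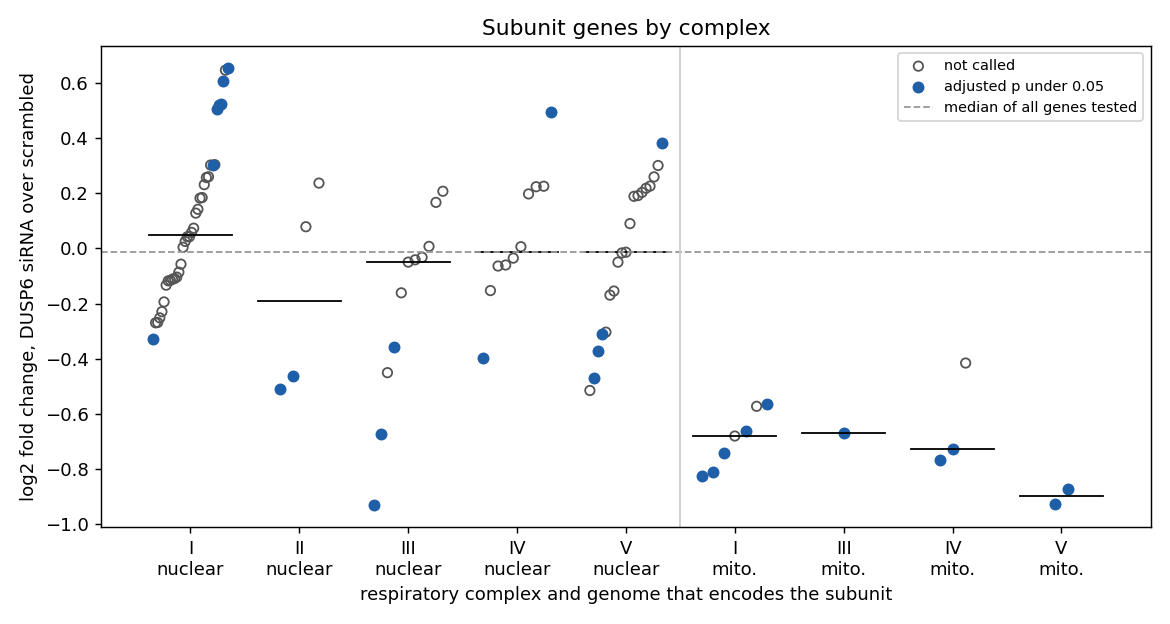
Log2 fold change of each tested member, DUSP6_KD over SCR, by complex, nuclear genes on the left and mitochondrial genes on the right. Filled points had an adjusted p under 0.05, black lines are medians and the dashed line is the median of all genes tested (-0.01). The nuclear medians lie between -0.19 and 0.05 and the mitochondrial genes between -0.92 and -0.42.

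All 36 nuclear complex I members were tested, and 6 were called higher and 1 lower (16.7% and 2.8%, against 19.7% and 24.7% of all genes), with a median log2 fold change of 0.05. Without SCR replicate 3, 13 were called higher and 4 lower (36.1% and 11.1%, against 24.9% and 27.8%), without SCR replicate 1 the numbers were 3 and 2, and without DUSP6_KD replicate 2 they were 3 and 1. The remaining choices gave 5 and 3 without SCR replicate 2, 4 and 0 without DUSP6_KD replicate 1, and 5 and 0 without DUSP6_KD replicate 3. The counts over all genes in these fits are given above. The largest rise was that of *NDUFB2*, an accessory subunit of the membrane arm, at 22.8, 23.0 and 26.9 with scrambled and 36.3, 42.3 and 37.4 with *DUSP6* siRNA (log2 fold change 0.65, SE 0.11, adjusted p = 0.00150), with the groups apart. It shares 38.9% of its exon sequence with *BRAF*, so its reads are uncertain. *NDUFS3*, a core subunit of the arm that leads electrons to ubiquinone, had 44.0, 40.9 and 57.9 in SCR and 70.2, 77.4 and 69.4 in DUSP6_KD (log2 fold change 0.61, SE 0.13, adjusted p = 0.00579). *NDUFB4*, another accessory subunit of the membrane arm, had 78.4, 83.6 and 90.3 in SCR and 111, 128 and 124 in DUSP6_KD (log2 fold change 0.52, SE 0.10, adjusted p = 0.00242). In both, the lowest knockdown library lay above SCR replicate 3, the highest scrambled one. *NDUFS7*, the core subunit that carries the last iron-sulfur cluster before ubiquinone, was at 16.7, 17.9 and 21.6 in the scrambled and 30.03, 29.4 and 22.6 in the knockdown libraries (log2 fold change 0.52, SE 0.14, adjusted p = 0.0160), and DUSP6_KD replicate 3 and SCR replicate 3 nearly met. *NDUFB6*, a further accessory subunit of the membrane arm, had 42.2, 37.8 and 55.3 with scrambled and 60.6, 69.5 and 60.9 with *DUSP6* siRNA (log2 fold change 0.50, SE 0.14, adjusted p = 0.0175). *NDUFS4*, an accessory subunit needed for stable assembly of the NADH-binding end, had 27.9, 28.9 and 31.5 in SCR and 33.5, 39.9 and 36.2 in DUSP6_KD (log2 fold change 0.30, SE 0.10, adjusted p = 0.0398), and its call was lost when any library but SCR replicate 3 was left out. The call of *NDUFB6* was lost without SCR replicate 1 or DUSP6_KD replicate 2, and that of *NDUFS7* without SCR replicate 1, DUSP6_KD replicate 1 or DUSP6_KD replicate 2. The member called lower was *NDUFA10*, an accessory subunit attached to the membrane arm, at 90.6, 82.3 and 98.3 in SCR and 69.0, 74.4 and 71.5 in DUSP6_KD (log2 fold change -0.33, SE 0.09, adjusted p = 0.0202), which was not called without DUSP6_KD replicate 1 or 3.

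By module, the 8 genes of the N module, which binds NADH, held 1 called member, *NDUFS4*. Its core subunits *NDUFV1*, *NDUFV2* and *NDUFS1*, which hold the flavin and most of the iron-sulfur clusters, were at log2 fold changes of -0.09, -0.06 and 0.00 (adjusted p = 0.516, 0.626 and 0.979), with 8.19% of the exon sequence of *NDUFV1* shared with *NDUFV1-DT*. The 8 genes of the Q module, which hands electrons to ubiquinone, held *NDUFS3* and *NDUFS7*, while the core subunit *NDUFS8* was at 0.06 (adjusted p = 0.640). Of the 7 nuclear core subunits, 2 were thus called higher and 0 lower (28.6% and 0%, against 19.7% and 24.7% of all genes), and likewise 2 and 0 without SCR replicate 3. The 9 genes of the proximal pump module held *NDUFA10*, and the 11 of the distal pump module held *NDUFB2*, *NDUFB4* and *NDUFB6*. In the N, Q, proximal and distal modules, 12.5%, 25%, 0% and 27.3% were called higher and 0%, 0%, 11.1% and 0% lower. Without SCR replicate 3 these shares were 25%, 50%, 33.3% and 36.4% higher and 25%, 12.5%, 11.1% and 0% lower, against 24.9% and 27.8% of all genes. The member nearest to 0 outside the core was *NDUFB3*, at 0.03 (adjusted p = 0.862). *NDUFA2* had nearly the fold change of *NDUFB2* without being called. Its values were 21.8, 15.9 and 35.9 in the scrambled and 35.3, 40.3 and 35.4 in the knockdown libraries (log2 fold change 0.65, SE 0.24, adjusted p = 0.0526), with SCR replicate 3 inside the knockdown range, and 17.4% of its exon sequence is shared with *TMCO6*.

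Of the 4 subunits of complex II, the 2 catalytic ones were called lower and the 2 membrane anchors were not called. That is 50% lower and 0% higher, against 24.7% and 19.7% of all genes. *SDHA*, the flavoprotein that oxidizes succinate, had 205, 216 and 216 with scrambled and 152, 152 and 142 with *DUSP6* siRNA (log2 fold change -0.51, SE 0.08, adjusted p = 0.00122). *SDHB*, the iron-sulfur subunit, had 117, 89.3 and 106 in SCR and 75.6, 74.0 and 74.9 in DUSP6_KD (log2 fold change -0.46, SE 0.11, adjusted p = 0.00806). The knockdown means were 70.1% and 71.9% of the scrambled means, the groups did not overlap, and both calls held without any 1 library. *SDHC*, an anchor that binds ubiquinone and heme with *SDHD*, had 101, 106 and 151 in SCR and 128, 155 and 134 in DUSP6_KD (log2 fold change 0.24, SE 0.15, adjusted p = 0.236), and *SDHD* itself had 64.1, 53.2 and 79.7 in the scrambled and 65.8, 72.3 and 67.5 in the knockdown libraries (log2 fold change 0.08, SE 0.14, adjusted p = 0.665). In both anchors SCR replicate 3 lay among or above the knockdown libraries, which overlapped with the scrambled group. Without SCR replicate 3, *SDHC* was called higher (log2 fold change 0.42) and *SDHA* and *SDHB* lower (25% and 50%, against 24.9% and 27.8% of all genes). The difference between the catalytic and the anchor subunits was not tested as such.

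The 11 nuclear complex III members had a median of -0.05, with 3 called lower and 0 higher (27.3% and 0%, against 24.7% and 19.7% of all genes). Without SCR replicate 3, 4 were called lower and 2 higher (36.4% and 18.2%, against 27.8% and 24.9%). *UQCRC2*, a core protein of the matrix side, had the largest fall of any nuclear member tested, with 242, 208 and 289 with scrambled and 133, 123 and 128 with *DUSP6* siRNA (log2 fold change -0.93, SE 0.12, adjusted p = 4.29e-04). The knockdown mean was 51.8% of the scrambled mean, with all 3 knockdown libraries far below the lowest scrambled one. *UQCR10*, a small accessory subunit, had 168, 183 and 117 in SCR and 98.0, 98.0 and 91.6 in DUSP6_KD (log2 fold change -0.67, SE 0.15, adjusted p = 0.00700), and its groups did not overlap either, although SCR replicate 3 lay well below the other scrambled libraries. *UQCRHL*, an intronless copy of the hinge gene *UQCRH*, was at 86.6, 84.4 and 85.7 in SCR and 68.1, 63.5 and 68.4 in DUSP6_KD (log2 fold change -0.36, SE 0.08, adjusted p = 0.00754), whereas *UQCRH* itself was at -0.04 (adjusted p = 0.770). Reads of this near-identical pair may be split between the 2 rows, so both values are uncertain. *UQCRC1*, the partner of *UQCRC2* in the core, had 217, 197 and 261 in the scrambled and 199, 205 and 196 in the knockdown libraries (log2 fold change -0.16, SE 0.11, adjusted p = 0.260). The Rieske iron-sulfur protein *UQCRFS1* and cytochrome c1, *CYC1*, were at -0.03 and 0.21 (adjusted p = 0.794 and 0.284), and *UQCR11* was nearest to 0 at 0.01 (adjusted p = 0.958). Of the 4 nuclear core subunits, *UQCRC2* was the 1 called (25% lower and 0% higher, against 24.7% and 19.7% of all genes). In the fit without SCR replicate 3, 1 of the 4 was called higher and 1 lower (25% and 25%, against 24.9% and 27.8%). *UQCRB* had 347, 322 and 208 with scrambled and 201, 222 and 204 with *DUSP6* siRNA (log2 fold change -0.45, SE 0.17, adjusted p = 0.0608), with SCR replicate 3 inside the knockdown range, and shares near-identical sequence with the pseudogene *UQCRBP1* at -0.05.

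For complex IV, 10 of the 15 nuclear members passed the filter, and *NDUFA4*, named for complex I, was counted here, where its protein resides. 1 was called higher and 1 lower (10% and 10%, against 19.7% and 24.7% of all genes), with a median of -0.01. *COX6A1*, the form of subunit VIa found in most tissues, had 202, 179.8 and 185 in SCR and 142, 148 and 138 in DUSP6_KD (log2 fold change -0.40, SE 0.09, adjusted p = 0.00554), without overlap. *COX7C*, a small membrane subunit, had 74.0, 72.4 and 115 in SCR and 112, 132 and 119 in DUSP6_KD (log2 fold change 0.50, SE 0.17, adjusted p = 0.0400). SCR replicate 3 lay within the knockdown range for *COX7C*, and its call was lost when any library but SCR replicate 3 was left out, and also when the filter was removed. Without SCR replicate 3, 4 members of complex IV were called higher and 1 lower (40% and 10%, against 24.9% and 27.8% of all genes). The other 8 tested members, *NDUFA4* among them, ran from -0.15 for *COX7B* to 0.23 for *COX5A*, with *COX6C* and *COX7A2* nearest to 0 at 0.01 and -0.03 (adjusted p = 0.960 and 0.796). The 5 members that failed the filter were *COX6A2* and *COX7A1*, known from heart and muscle, *COX6B2* and *COX7B2*, known from testis, and *COX8C*. Each was at most 0.124 in any library, and *COX6A2* and *COX7B2* were at 0 in 5 of the 6 libraries. *COX4I1*, the usual subunit IV, whose symbol the rule leaves out, was at -0.03 (adjusted p = 0.809).

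The 19 nuclear members of complex V had a median of -0.01, with 3 called lower and 1 higher (15.8% and 5.3%, against 24.7% and 19.7% of all genes). *ATP5PF*, the coupling factor F6 of the stalk, had 107, 95.8 and 89.5 in the scrambled and 69.2, 71.8 and 68.3 in the knockdown libraries (log2 fold change -0.47, SE 0.09, adjusted p = 0.00361). It shares 46.7% of its exon sequence with *GABPA*, which lies head to head with it, so its reads are uncertain. *ATP5MPL*, a small membrane subunit, had 92.6, 80.9 and 98.9 with scrambled and 67.7, 70.8 and 70.8 with *DUSP6* siRNA (log2 fold change -0.37, SE 0.10, adjusted p = 0.0136). *ATP5F1C*, the gamma subunit that forms the rotating shaft, had 221, 179 and 201 in SCR and 154, 166 and 161 in DUSP6_KD (log2 fold change -0.31, SE 0.10, adjusted p = 0.0305). In these 3 genes the knockdown libraries lay below all scrambled ones, and without DUSP6_KD replicate 1 or 3 *ATP5PF* was the only one of the 3 still called. *ATP5F1C* was also not called without SCR replicate 1 or DUSP6_KD replicate 2. *ATP5PD*, subunit d of the stalk, had 308, 262 and 372 in SCR and 384, 439 and 395 in DUSP6_KD (log2 fold change 0.38, SE 0.13, adjusted p = 0.0405), and its call was lost when any library but SCR replicate 3 was left out. With SCR replicate 3 left out, 7 members were called higher and 4 lower (36.8% and 21.1%, against 24.9% and 27.8% of all genes).

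The F1 head, which makes ATP, held 1 called gene among 5, *ATP5F1C*, lower (20%, against 24.7% of all genes). Without SCR replicate 3, 3 of the 5 were called higher and 1 lower (60% and 20%, against 24.9% and 27.8%). *ATP5F1A* and *ATP5F1B*, the alpha and beta subunits, were at 0.23 and 0.09 (adjusted p = 0.132 and 0.658), and *ATP5F1D* at 0.26 (adjusted p = 0.0986). *ATP5F1E* stood at only 0.610 to 1.59 over the 6 libraries while its processed copy *ATP5F1EP2* stood at 17.8 to 26.0, so the reads of the epsilon subunit cannot be assigned to 1 of them, and 23.2% of the exon sequence of *ATP5F1E* is also shared with *TUBB1*. The 3 genes of the c ring, *ATP5MC1*, *ATP5MC2* and *ATP5MC3*, encode the same mature protein. They were at 0.20, 0.22 and 0.19, and 0 of the 3 were called (adjusted p = 0.185, 0.170 and 0.245). Without SCR replicate 3, 2 of the 3 were called higher (66.7%, against 24.9% of all genes). *ATP5MG* and *ATP5PO* were nearest to 0, at -0.01 and -0.02 (adjusted p = 0.926 and 0.940).

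**Figure D4:**
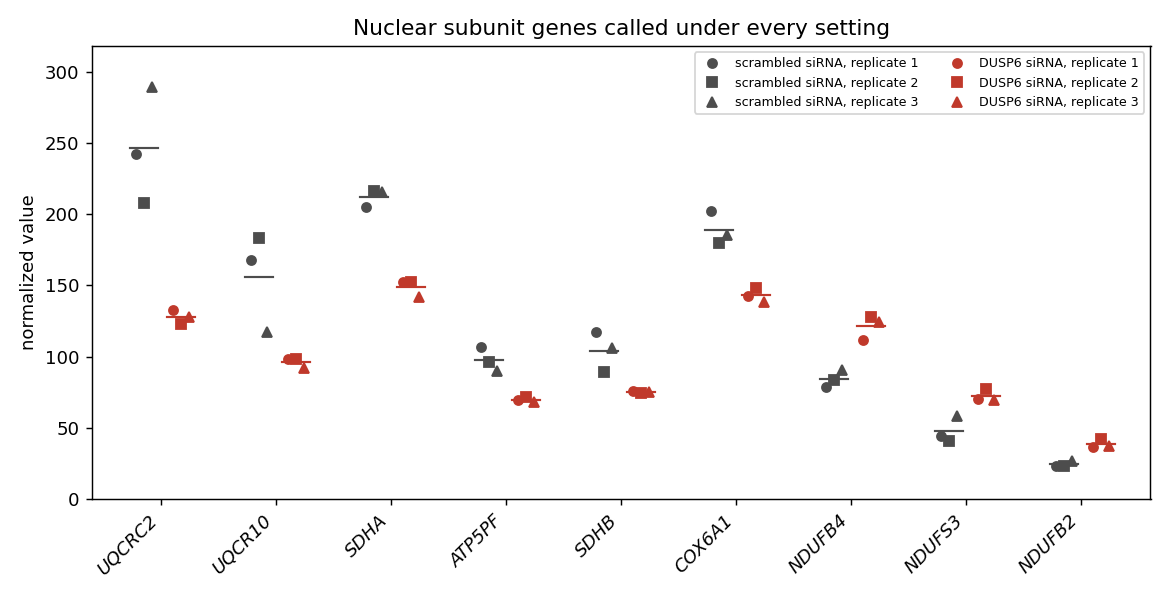
Normalized value of the 9 nuclear members called the same way under every setting tried, in each library, with scrambled siRNA in grey, *DUSP6* siRNA in red, a symbol per replicate and a line at each group mean. The 3 knockdown libraries lie below the 3 scrambled ones for the 6 genes on the left and above them for *NDUFB4*, *NDUFS3* and *NDUFB2*.

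The promoters were searched for 4 motifs of factors known to act on respiratory genes, in the 250 bases before the start and on both strands. The NRF1 motif was found in 20 of the 67 member promoters (29.9%), against 7.02% of all 27305 promoters. It was in 2 of 8 members called higher, 5 of 9 called lower and 12 of 46 tested and not called. The ETS motif CCGGAAG was found in 17 of 67 (25.4%, against 8.82%), in 2 of 8 called higher, 3 of 9 called lower and 12 of 46 not called. AAGATGGC, for YY1, was found in 1 of 67, *ATP5PF* (1.49%, against 1.37%), and GGGCGG, for SP1, in 37 of 67 (55.2%, against 42.3%). *UQCRC2* and *UQCR10*, the nuclear members called with the largest falls, held none of the 4 in these windows. The letters say nothing of whether a factor was bound.

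Proteins that assemble the complexes were counted from lists. Of 18 complex I assembly factors, 6 were called lower (33.3%) and 0 higher, with a median of -0.12, against 24.7% lower among all genes. Without SCR replicate 3 the counts were 6 lower and 2 higher (33.3% and 11.1%, against 27.8% and 24.9% of all genes). *NUBPL*, which helps to insert iron-sulfur clusters, had 9.22, 10.3 and 10.8 in the scrambled and 4.65, 4.73 and 4.59 in the knockdown libraries (log2 fold change -0.97, SE 0.11, adjusted p = 1.75e-04), and *ACAD9*, a part of the membrane assembly complex, had 45.5, 42.1 and 52.8 with scrambled and 28.7, 28.1 and 29.2 with *DUSP6* siRNA (log2 fold change -0.68, SE 0.11, adjusted p = 0.00105). Both lay apart between the groups, although 5.26% of the exon sequence of *ACAD9* is shared with *CFAP92*. For complex II, *SDHAF4* was called higher (0.51) and *SDHAF1* lower (-0.42) of 4 genes (25% and 25%, against 19.7% and 24.7%). For complex III, *TTC19* and *UQCC1* were called higher (0.43 and 0.32) and *LYRM7*, which delivers the Rieske protein, lower (-0.47) of 6. These were 33.3% and 16.7%, against 19.7% and 24.7%, with 11.1% of the exon sequence of *TTC19* shared with *NCOR1*. Of 23 complex IV assembly factors tested among 24 listed, 2 were called higher and 4 lower (8.7% and 17.4%, against 19.7% and 24.7%). *COX10*, which makes a precursor of heme a, had 18.1, 13.9 and 10.8 in SCR and 7.78, 7.56 and 7.12 in DUSP6_KD (log2 fold change -0.82, SE 0.17, adjusted p = 0.00422), and *TACO1*, a translational activator of *COX1*, was at -0.47 (adjusted p = 0.00665). *HIGD2A* and *COX19* were the 2 called higher (0.93 and 0.41), with 27.1% of *HIGD2A* shared with *NOP16*. Of 5 ATP synthase assembly factors, *ATPAF1* and *ATPAF2*, which bind the beta and alpha subunits, were called lower (-0.67 and -0.32), and *FMC1* and *TMEM70* higher (0.49 and 0.34). Each direction held 40%, against 24.7% lower and 19.7% higher among all genes. *FMC1* stood near the filter, at 0.788, 1.07 and 1.34 in SCR and 1.90, 1.94 and 1.82 in DUSP6_KD. The counts higher and lower without SCR replicate 3 were 1 and 1 for complex II, 2 and 0 for complex III, 6 and 4 for complex IV and 2 and 2 for ATP synthase. In that order these were 25% and 25%, 33.3% and 0%, 26.1% and 17.4%, and 40% and 40%, against 24.9% and 27.8% of all genes. The calls of *SDHAF4*, *SDHAF1*, *TTC19*, *UQCC1*, *LYRM7*, *TMEM70* and *ATPAF2* were lost without at least 1 of the knockdown libraries, DUSP6_KD replicate 2 being such a library for each of them. *SDHAF1*, *UQCC1*, *LYRM7* and *ATPAF2* also lost their call under a setting that kept all libraries, and *ATPAF2* lost it in 9 settings and kept it in 7. The calls of the other genes named here held under every setting that tested them.

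Among 6 tested subunit or partner genes whose symbols the rule leaves out, *ATP5IF1*, the inhibitor of ATP synthase, was called lower at 127, 164 and 148 in SCR and 99.5, 107 and 92.4 in DUSP6_KD (log2 fold change -0.54, SE 0.11, adjusted p = 0.00449). *DMAC2L*, a coupling factor, was called higher (0.43, not without DUSP6_KD replicate 2 or 3), with 45.1% of its exon sequence shared with *CDKL1*. *CYCS*, cytochrome c, *NDUFAB1* and *COX7A2L* were not called, at -0.09, 0.22 and -0.05. Each direction thus held 16.7% of the 6, against 19.7% higher and 24.7% lower among all genes. In the fit without SCR replicate 3, 2 of the 6 were called higher and 1 lower (33.3% and 16.7%, against 24.9% and 27.8%).

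Of 17 genes that copy and transcribe mitochondrial DNA, 1 was called higher and 3 lower (5.9% and 17.6%, against 19.7% and 24.7% of all genes, median -0.02). Without SCR replicate 3 the counts were 2 and 2 (11.8% and 11.8%, against 24.9% and 27.8%). *POLRMT*, the mitochondrial RNA polymerase, was called higher at 29.5, 29.5 and 37.7 in the scrambled and 46.2, 45.3 and 40.5 in the knockdown libraries (log2 fold change 0.44, SE 0.12, adjusted p = 0.0153), in the opposite direction from the mitochondrial mRNAs. *TWNK*, the DNA helicase, and *MTERF1*, a termination factor, were called lower (-0.47 and -0.40). Of 19 genes of mitochondrial RNA processing and stability, 4 were called higher and 2 lower (21.1% and 10.5%, against 19.7% and 24.7%, median 0.01). Without SCR replicate 3 the counts were 6 and 3 (31.6% and 15.8%, against 24.9% and 27.8%). *PNPT1*, polynucleotide phosphorylase, which degrades mitochondrial RNA and is also known as an interferon-induced gene, had 75.4, 54.7 and 66.5 with scrambled and 122, 93.8 and 138 with *DUSP6* siRNA (log2 fold change 0.83, SE 0.16, adjusted p = 0.00316). *SLIRP*, which with LRPPRC stabilizes mitochondrial mRNAs, had 73.4, 53.0 and 58.0 in SCR and 44.4, 43.1 and 45.1 in DUSP6_KD (log2 fold change -0.45, SE 0.12, adjusted p = 0.0157), with 18.5% of its exon sequence shared with *C14orf178*. *ANGEL2* was called higher (0.46) and *FASTKD1* lower (-0.42). Of these, *PNPT1* and *ANGEL2* kept their call under every setting tried, and *POLRMT*, *TWNK*, *MTERF1*, *SLIRP* and *FASTKD1* lost it without DUSP6_KD replicate 1 and also without DUSP6_KD replicate 2.

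Of 14 nuclear regulators of respiratory genes, 1 was called higher and 4 lower (7.1% and 28.6%, against 19.7% and 24.7%, median -0.22). Without SCR replicate 3 the counts were 1 and 5 (7.1% and 35.7%, against 24.9% and 27.8%). *PPARGC1A*, the coactivator PGC-1alpha, had 6.10, 6.07 and 3.19 in SCR and 20.1, 31.3 and 20.9 in DUSP6_KD (log2 fold change 2.05, SE 0.23, adjusted p = 2.10e-04), a rise in all 3 knockdown libraries. *GABPB1*, the beta subunit of GABP, had 80.3, 46.1 and 52.5 in the scrambled and 30.9, 27.7 and 30.1 in the knockdown libraries (log2 fold change -0.95, SE 0.18, adjusted p = 0.00303), and *SP1* was called lower (-0.42), though not under quantile normalization. The citric acid cycle supplies the chain with NADH and shares complex II with it. Of its 14 listed enzymes, *SDHA* to *SDHD* not among them, 8 were called lower and 0 higher. Their median was -0.32, and 57.1% were lower, against 24.7% among all genes. Without SCR replicate 3, 10 were lower and 0 higher (71.4% and 0%, against 27.8% and 24.9%). Citrate synthase, *CS*, had 368, 313 and 350.3 with scrambled and 178, 162 and 173 with *DUSP6* siRNA (log2 fold change -1.001, SE 0.09, adjusted p = 7.73e-05), and *IDH2*, the NADP-dependent isocitrate dehydrogenase, had 42.7, 34.9 and 41.2 in SCR and 18.2, 17.2 and 16.6 in DUSP6_KD (log2 fold change -1.14, SE 0.11, adjusted p = 8.01e-05). In both genes all 3 knockdown libraries lay below every scrambled one.

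**Figure D5:**
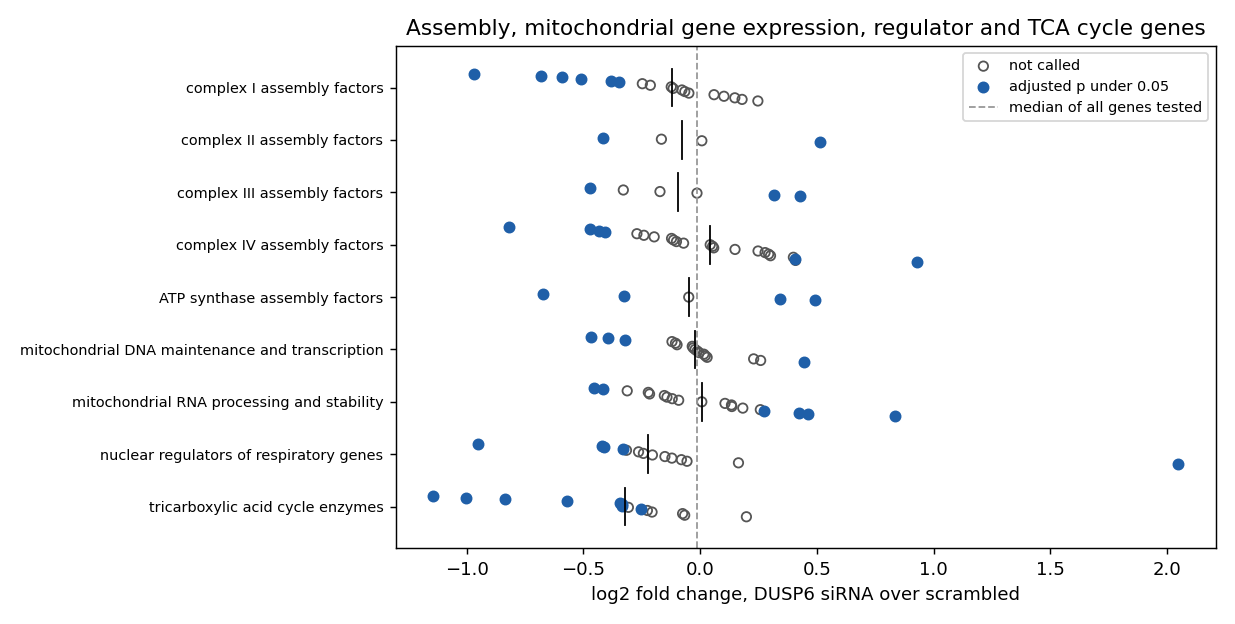
Log2 fold change, DUSP6_KD over SCR, of each tested gene in 9 lists of assembly factors, mitochondrial DNA and RNA genes, nuclear regulators and citric acid cycle enzymes. Filled points had an adjusted p under 0.05, black lines are medians and the dashed line is the median of all genes tested (-0.01). The isolated point at 2.05 is *PPARGC1A*, and the citric acid cycle median lies at -0.32.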

How the data were processed

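RNA was prepared with the Illumina TruSeq Stranded mRNA kit, per the labels. The authors aligned the reads to hg38 and assigned them to RefSeq gene models with Rsubread 2.0.0 at its default settings, and the submitters' processing notes also name bcl2fastq and edgeR. The deposited table holds a normalized signal for each gene in each library, not log-transformed. Each value was a whole number of reads (100.0% within 0.01 reads) times 1 step per library, and the steps matched edgeR's TMM scaling, so depth and composition were already adjusted for. 1 step was worth 0.0121 to 0.0202. At values near 1, counting error is therefore part of the spread between libraries, and how large a part was not tested.

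The members and all lists were chosen with earlier results of these data known. Values were taken as log2(value + 1), the 12862 genes with a mean of at least 1 were fitted in limma 3.58.1 under R 4.3.3 (lmFit, eBayes with trend), and p-values were adjusted by Benjamini-Hochberg over all of them, with calls under 0.05. The scripts were tested on simulated data. Named genes were the 13 mitochondrial genes, the subunits of complex II, up to 3 called members in each direction and 2 near 0 in each other complex, the core and role lists, and up to 2 called genes in each direction in each pathway list. *NDUFA2*, *UQCRB*, *UQCRH*, *UQCRBP1*, *ATP5F1EP2*, *NDUFB6*, *NDUFS7*, *NDUFS4*, the genes at the ends of complex IV and the uncalled genes outside the symbol rule were also named after their values were seen. Positions came from RefSeq on GRCh38, which matched 98 of 98 members, lengths and exon overlap from GENCODE, and genes sharing over 5% of their exon sequence with a neighbour were given as uncertain where named.

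The other settings changed the pseudocount (0.1), the filter (none, or a mean of 10 or more) and the scaling (median of ratios, quantile normalization, library sizes without the mitochondrial genes), or used no trend, a replicate block, leaving out each library in turn, edgeR 4.0.16 (quasi-likelihood) and DESeq2 1.42.0 on the recovered reads. The library sizes without the mitochondrial genes were plain read totals, without the TMM factors. 0 columns of other samples were present. The values of 1 complex I member are not reported here.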

Additional observations from a re-analysis of the deposited data

How the results depend on the processing

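The fall of *DUSP6* held under 16 of 16 other settings. Replicate numbers did not pair the libraries (r of same-numbered deviations 0.005, 0.0868 and -0.0764), and the replicate block gave 12 mitochondrial and 12 nuclear members called lower and 8 nuclear ones higher. It also gave 2495 and 3096 of all genes higher and lower, and ended the call of *NDUFS4*. Library sizes without the mitochondrial genes and without the TMM factors moved the median of all genes to 0.14. Under this setting 4146 and 2196 of all genes, 24 and 6 nuclear members, 16 and 0 of complex I and 7 and 1 of complex V were called higher and lower. The medians of complexes I and III became 0.21 and 0.11, and 8 mitochondrial genes stayed called lower at a median of -0.57. Quantile normalization, which by construction gives the top-ranked genes of each library the same values, left 3 mitochondrial genes called lower (*ATP6*, *ATP8* and *ND3*) at a median of -0.033, with *ND2* and *CYTB* at 0.038 and 0.093. It also gave 20 nuclear members higher, of which 14 in complex I (0 lower, median 0.15), 1 in complex III and 4 in complex V. Of all genes it called 2958 higher and 2887 lower. Without the filter 2 mitochondrial genes stayed called lower and 0 members of complexes IV and V were called higher. That fit called 2981 of 22807 genes higher and 3201 lower. With a mean of at least 10, 1639 of all genes were called higher. edgeR called 10 complex I members higher, beside 2771 of all 12862 genes. DESeq2 called 13 nuclear members higher, 11 of them in complex I, and 5 of complex V lower. Of all 12862 genes it called 2905 higher and 3268 lower. A pseudocount of 0.1 and no trend each called 2 complex I members lower, beside 3182 and 3136 of all genes.

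Leaving out 1 library gave 1535 to 3213 of all genes higher and 2309 to 3578 lower. It gave 3 to 27 nuclear members higher and 3 to 13 mitochondrial genes lower. By complex it gave, for higher calls, 3 to 13 (I), 0 to 1 (II), 0 to 2 (III), 0 to 4 (IV) and 0 to 7 (V), and for lower calls 0 to 4 (I) and 1 to 4 (V). Over the 55 called genes named by the rule above and their other settings, 753 values kept the call, 121 lost it and 2 turned. *NDUFB6* and *NDUFS4*, named after their values were seen, are not among the 55. They kept their call under 14 and 10 of the 16 other settings. Members near 0 and not called changed sign. On leaving out 1 library their log2 fold changes ran from -0.060 to 0.23 (*SDHD*), -0.060 to 0.12 (*NDUFS1*), -0.070 to 0.098 (*NDUFB3*), -0.054 to 0.059 (*UQCR11*), -0.089 to 0.019 (*UQCRFS1*), -0.032 to 0.071 (*COX6C*), -0.11 to 0.048 (*COX7A2*), -0.099 to 0.051 (*ATP5MG*), -0.18 to 0.14 (*ATP5PO*), -0.14 to 0.010 (*NDUFV1*) and -0.051 to 0.27 (*ATP5F1B*). Under quantile normalization and without the mitochondrial genes in the library size they were 0.10 and 0.13 (*UQCRFS1*), 0.079 and 0.12 (*COX7A2*), 0.11 and 0.15 (*ATP5MG*), 0.12 and 0.14 (*ATP5PO*), 0.057 and 0.074 (*NDUFV1*) and 0.045 and 0.10 (*NDUFV2*). *UQCRC1* was at 0.029 under quantile normalization, *NDUFS1* at -0.00015 with the median of ratios, *UQCRFS1* at 0.00049 in edgeR, and *ATP5MG* at 0.017 in edgeR and 0.0064 in DESeq2. Apart from the scalings named, the cause of these changes was not tested.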

Other observations

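The mitochondrial ribosomal RNAs did not share the pattern of the mitochondrial mRNAs. They took 1.48%, 1.62% and 0.919% of the assigned reads in SCR replicates 1, 2 and 3 and 1.56%, 1.56% and 1.69% in the knockdown libraries, so SCR replicate 3 was again the lowest scrambled library but the knockdown libraries lay at the level of the other two. The kit selects polyadenylated RNA, so this share is not the level of ribosomal RNA in the cells, and no test was run on it.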
